A study of Mus musculus with 2 samples.

Results

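Kinesins, myosins and dyneins are the motor proteins of the cytoskeleton, and the circular RNAs (circRNAs) made from their genes are described here in mouse intestine. Motor genes were those whose listed name began with Kif, Myo or Myh and a digit, or with Dync or Dnah. In the deposited lists this rule took 61 of 8174 host genes. They comprised 28 kinesins, 19 unconventional myosins, 3 myosin II heavy chains, 6 cytoplasmic dynein chains and 5 axonemal dynein chains. They held 349 of 31496 listed circRNAs. Of these, 282 had at least 1 read across the back-splice junction, the join between the end of a downstream exon and the start of an upstream one that only a circle has.

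The study profiled circRNAs of intestinal stem cells (ISC). Cells of the intestine of Lgr5GFP-CreERT2 mice aged 2 months were sorted by flow cytometry, and 1 library was made from Lgr5+ ISC and 1 from Lgr5- non-ISC. In this strain GFP and a tamoxifen-dependent Cre are driven from the Lgr5 gene, and both groups carry it. The labels do not say how many mice were used or whether they were pooled, and they name no tamoxifen. Total RNA was depleted of ribosomal RNA, digested with RNase R, which removes linear RNA, broken to about 200 bp and sequenced from both ends over 150 nt.

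Kinesins and dyneins move along microtubules, most kinesins towards the plus end and dyneins towards the minus end, and myosins pull on actin filaments. Dividing cells use a set of kinesins to build the spindle and to cleave the cell at cytokinesis, and crypt cells are the dividing cells of the intestinal epithelium. Absorptive enterocytes carry a brush border of actin-cored microvilli, in which class I, V, VI and VII myosins hold the membrane to the core, join microvillar tips and carry membrane to the apical surface. Dynein 1 carries cargo in the cytoplasm and at the spindle, dynein 2 moves cargo inside cilia, and axonemal dyneins drive the beat of motile cilia and flagella.

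The library labelled ISC held 156582 junction reads in all and the library labelled non-ISC 76331, and 3 reads, the most that an unread gene could plausibly have had, equal 19.2 and 39.3 per 1000000 of these. Markers of crypt stem cells, of epithelium and of the T lineage went against the labels. Of 6 crypt stem cell genes, 5 had reads, with a sum of 0 reads labelled ISC against 129 labelled non-ISC, and Lgr5 itself had 0 against 7. Epithelial genes had 1 against 164 reads with 8 of 9 detected, and enterocyte genes 5 against 365 with 7 of 7 detected. T lineage genes had 7025 against 125 reads with 10 of 12 detected, and 2733 against 122 without Satb1. Myeloid genes had 9 against 3 reads, ciliated cell genes 1 against 0 and smooth muscle genes none in either. The 2 libraries are therefore called by their labels throughout. How far these cell types take part in any difference below was not tested, and with 1 library a group no difference has a replicate check. In bulk RNA, fewer cells of a type and less RNA per cell cannot be told apart.

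Junctions of some of the circles described below are shown first, from Kif23, Kif15 and Kif2a among kinesins, Dnahc8 and Dync1h1 among dyneins and Myo1a, Myo1e and Myo1g among myosins. Dnahc8 exons 22 to 24 and Myo1e exons 7 to 9 are shown because they share an end with a leading circle of their gene, and the others led their gene in at least 1 library. Each line runs 5′ to 3′ on the transcript strand, with the last 20 nt of the last exon of the circle in lower case and the first 20 nt of its first exon in capitals, so that the back-splice lies where the case changes.
Kif23 exons 14 to 17: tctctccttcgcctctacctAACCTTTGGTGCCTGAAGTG
Kif23 exons 16 to 21: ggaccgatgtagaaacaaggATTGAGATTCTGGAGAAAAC
Kif15 exons 24 to 26: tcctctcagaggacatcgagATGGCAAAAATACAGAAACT
Kif2a exons 2 to 4: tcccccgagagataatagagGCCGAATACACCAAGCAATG
Kif2a exons 5 to 9: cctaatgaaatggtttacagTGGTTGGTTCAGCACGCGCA
Dnahc8 exons 22 to 24: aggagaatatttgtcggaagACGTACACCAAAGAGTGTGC
Dnahc8 exons 23 to 24: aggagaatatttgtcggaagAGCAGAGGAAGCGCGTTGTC
Dnahc8 exons 27 to 31: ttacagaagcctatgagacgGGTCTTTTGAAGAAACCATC
Dync1h1 exons 49 to 51: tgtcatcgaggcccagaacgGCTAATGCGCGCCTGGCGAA
Myo1a exons 4 to 7: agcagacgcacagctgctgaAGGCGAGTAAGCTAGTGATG
Myo1e exons 5 to 9: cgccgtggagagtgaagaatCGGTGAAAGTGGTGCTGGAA
Myo1e exons 7 to 9: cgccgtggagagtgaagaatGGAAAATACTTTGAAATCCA
Myo1g exons 10 to 12: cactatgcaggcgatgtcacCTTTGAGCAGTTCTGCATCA
These are letters of GENCODE M21 transcripts on GRCm38 at the deposited ends, not of reads. The Dnahc8 circles of exons 22 to 24 and 23 to 24 have the same lower-case part, since both end at exon 24, and differ after the junction. The same holds for the pair of Myo1e circles, which both end at exon 9. The Kif23 circles lie at chr9:61924632-61926518 and chr9:61919612-61925143 on the minus strand, the Kif2a circles at chr13:106990038-106993942 and chr13:106982524-106988075 on the minus strand, and the Dnahc8 circles at chr17:30690181-30695216, chr17:30693949-30695216 and chr17:30704655-30712386 on the plus strand. The circles of Kif15 (chr9:123002035-123004693), Dync1h1 (chr12:110651491-110652194) and Myo1a (chr10:127706820-127707716) lie on the plus strand, as do those of Myo1e (chr9:70316592-70327276 and chr9:70322392-70327276), and that of Myo1g (chr11:6514467-6515208) on the minus strand. Every circle shown starts and ends at annotated exon borders.

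Motor genes gave 854 of the junction reads labelled ISC, or 0.545% (exact 95% interval 0.510 to 0.583), and 667 of those labelled non-ISC, or 0.874% (0.809 to 0.942). Dividing the first share by the second gave 0.624 (exact conditional interval 0.563 to 0.692). All ratios below have the label ISC above the line and are built the same way, and all intervals cover counting error only. Scaled by the library totals that the deposited RPM values imply, which raises every log2 ratio by 1.49, the same ratio was 1.76. Reads were found for 57 of the 61 genes, and Dnahc2, Kif1c and Kif6 were among those with none. Both libraries held reads for 25 genes, 19 had reads labelled ISC alone and 13 reads labelled non-ISC alone.

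A gene is called higher or lower in the library labelled ISC when 10 or more reads were found in the libraries together, the shares differed at least 2-fold and the interval left out 1. Of the 61 motor genes, 32 had 10 reads and 29 fewer. Among the 32, 6 were higher (18.8%), against 26.7% of all host genes with enough reads. A further 12 were lower (37.5%), against 22.7% of all, and 14 were neither. The higher genes were Kif23, Kif15, Myh9, Myo1g, Dync1i1 and Dync2h1, and 3 of them had no read in the other library. Of the 12 lower genes, 7 had no read labelled ISC. The median log2 ratio of the 32 was -0.50, beside 0.16 over the 2920 host genes with enough reads. Genes enter this count by their reads over both libraries, so a gene read in 1 library alone could only be called that way.

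**Figure D1:**
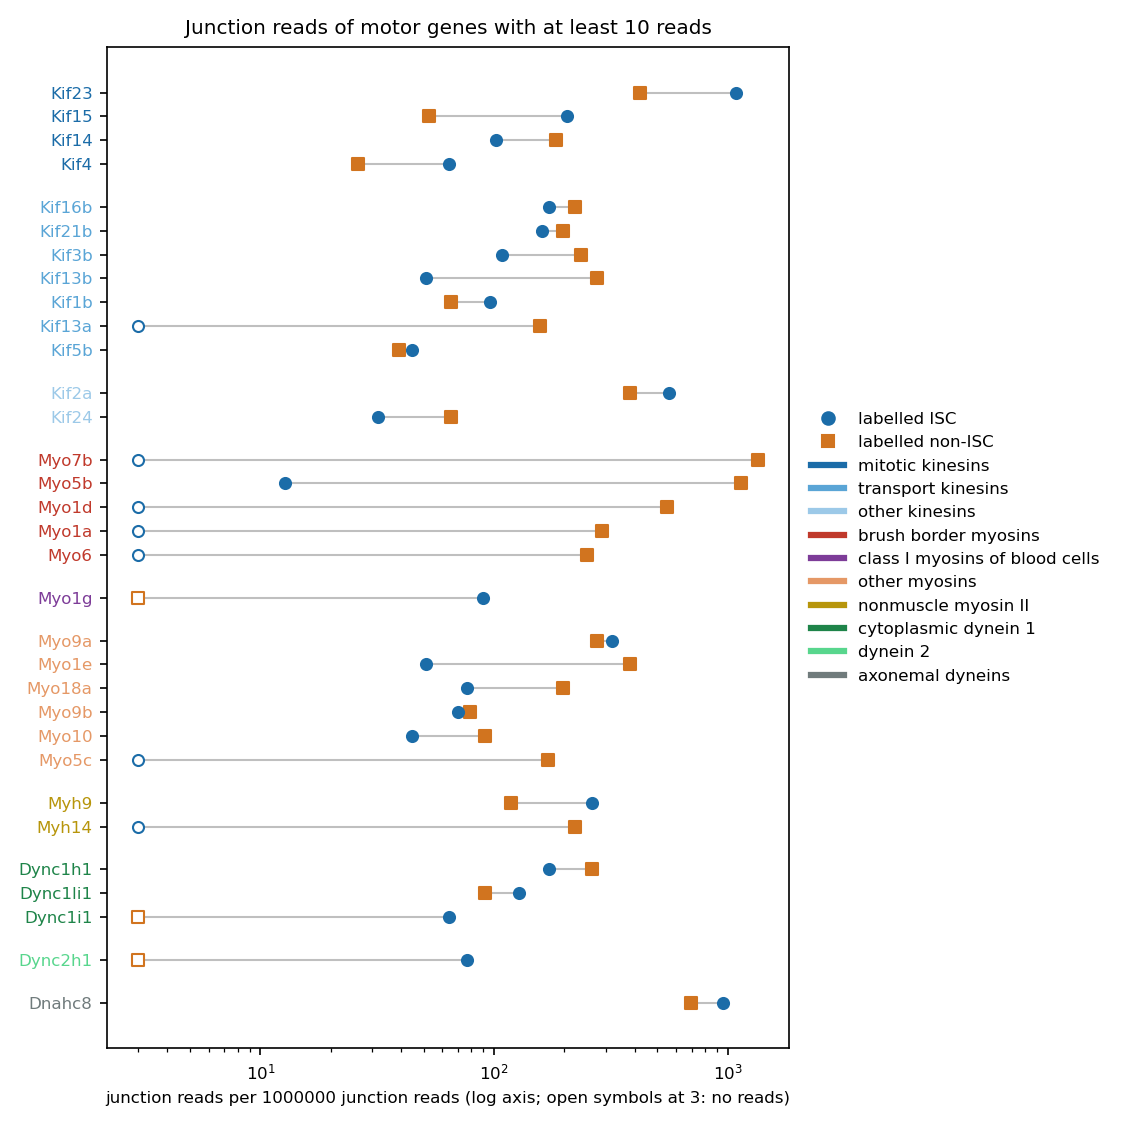
Junction reads per 1000000 junction reads (log axis) of each motor gene with at least 10 reads, in the library labelled ISC (circles) and the library labelled non-ISC (squares), coloured by role, with open symbols drawn at 3 where there were no reads. The 5 brush border myosins lie far to the right in the library labelled non-ISC alone, and Kif23 is the most read mitotic kinesin in both.

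**Figure D2:**
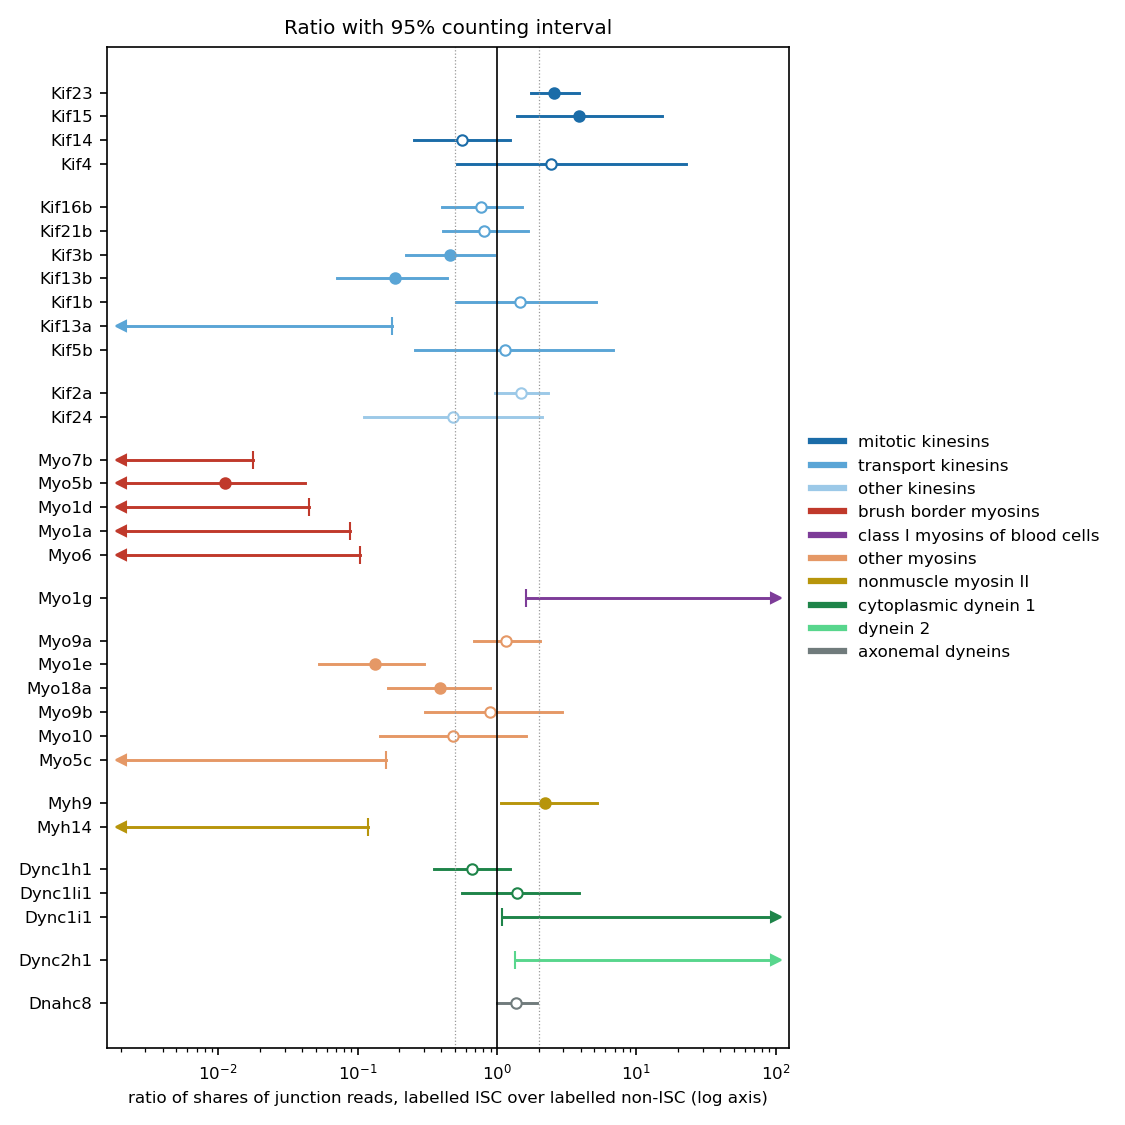
Ratio of the share of junction reads labelled ISC to the share labelled non-ISC (log axis), with the 95% counting interval of each motor gene with at least 10 reads. Filled points passed the rule, open points did not, arrows mark intervals that leave the axis, short upright strokes mark the finite bound where 1 library had no reads, and dotted lines stand at a ratio of 2 in either direction.

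Mitotic kinesins were represented by 11 genes, all with reads. Together they had 257 reads labelled ISC and 53 labelled non-ISC, a ratio of 2.36 (1.75 to 3.24). All 11 had reads labelled ISC and 5 had reads labelled non-ISC. Kif23, the kinesin of the centralspindlin complex that bundles midzone microtubules before cytokinesis, gave 65.8% of these reads in one library and 60.4% in the other. Without it the list had 88 against 21 reads and a ratio of 2.04. On the deposited count column, in place of junction reads, the ratio of the list was 1.004.

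Kif23 itself had 169 against 32 reads, or 1079 against 419 per 1000000, and was higher in the library labelled ISC (ratio 2.57, 1.76 to 3.88). This direction turned on the count column scaled to its own sum, to -0.62 on the log2 scale, and not on the same column scaled to the library totals, where it was 1.58. Kif15, a plus-end spindle kinesin that helps Kif11 to hold the poles apart, had 32 against 4 reads and was also higher (3.90, 1.38 to 15.2), a call lost when reads were halved as if both mates of a pair had been counted. Kif14, which acts at the midbody with citron kinase, had 16 against 14 reads and passed in neither direction (0.557, 0.255 to 1.23). Kif4, a chromokinesin, had 10 against 2 reads and did not pass either (2.44, 0.519 to 22.9).

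The other 7 mitotic kinesins had fewer than 10 reads each, 30 reads in sum labelled ISC and 1 labelled non-ISC. Kif11, the bipolar kinesin that separates spindle poles, and Kif20b, a cytokinesis kinesin, each had 7 reads labelled ISC. Kif18a, which damps chromosome movement at the metaphase plate, had 6, and Kif20a, which acts at the midzone, had 4. Kif2c, a microtubule depolymerase of centromeres, had 4 against 1 and was the one gene of the 7 with reads in both libraries. Kif18b and Kif22 had 1 read each labelled ISC. That 6 of the 7 were read in 1 library alone is a description at these counts, since 0 reads labelled non-ISC allow up to 39.3 per 1000000.

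Brush border myosins were the other pole of the comparison. The 5 genes had 2 reads labelled ISC and 273 labelled non-ISC, a ratio of 0.00357, and all 5 were lower. Myo7b, which links protocadherin complexes to the actin core at microvillar tips, had 0 against 103 reads and was at least 70.4-fold lower. Myo5b, which carries recycling endosomes to the apical membrane and whose human gene is mutated in microvillus inclusion disease, had 2 against 87 reads and a ratio of 0.0112, with an upper bound of 0.0417. Myo1d, a class I motor of microvilli, had 0 against 42 reads and was at least 28.7-fold lower. Myo1a, the brush border myosin I that ties the membrane to the core bundle, had 0 against 22 reads and was at least 15.0-fold lower. Myo6, a minus-end motor at the base of microvilli, had 0 against 19 reads and was at least 13.0-fold lower. These bounds set the 0 at 3 reads per library. The exact interval gave smaller bounds, 56.3-fold for Myo7b, 22.3 for Myo1d, 11.2 for Myo1a and 9.57 for Myo6. Enterocyte markers were lower too, with 5 against 365 reads, and their part in the result was not tested.

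The brush border reads came from 42 circRNAs. Of these, 1 had reads in both libraries, the Myo5b circle of exons 3 to 4 with 2 against 28 reads. The most read Myo7b circle, of exons 5 to 8, had 58 reads labelled non-ISC, and the most read Myo5b circle, of exons 20 to 21, had 32. Myo1d reads were spread over 10 circles with at most 8 reads each. Myo1a was the least spread, with 15 of its 22 reads on the circle of exons 4 to 7 printed above.

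The pair of lists was also compared within each library, which needs no scaling between libraries. Mitotic kinesins took 257 of the 259 reads on both lists labelled ISC, or 99.2% (exact binomial interval 97.2 to 99.9). In the library labelled non-ISC they took 53 of 326, or 16.3% (12.4 to 20.7). Their intervals did not overlap. On circRNAs with reads in both libraries the non-ISC share was 53.3%, since most brush border circles then dropped out, and on the count column it was 5.13%. T lineage reads were high in the library labelled ISC, and their part in this difference was not tested.

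**Figure D3:**
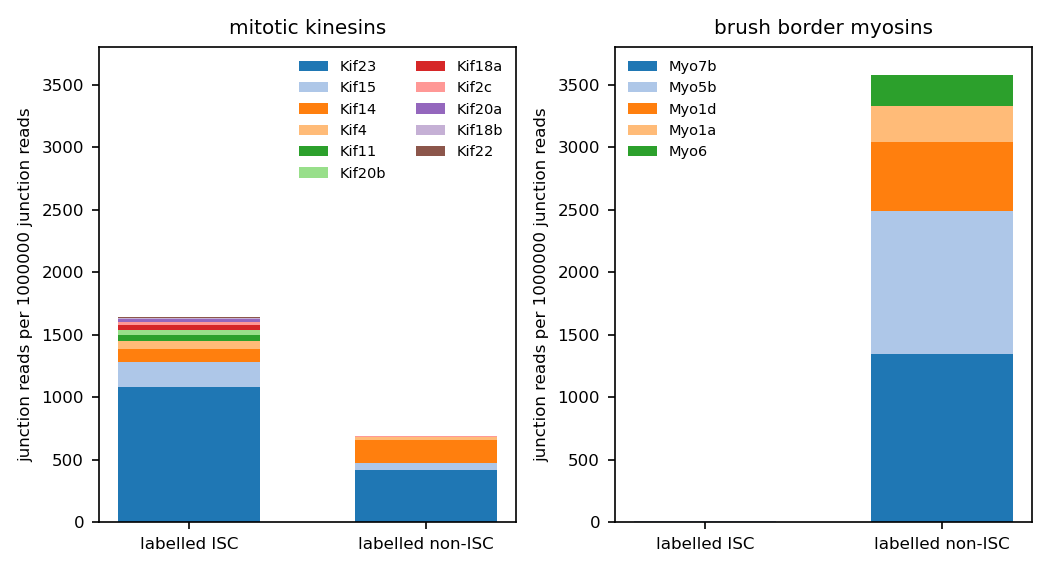
Stacked bars of junction reads per 1000000 junction reads in each library, with the 11 mitotic kinesins on the left and the 5 brush border myosins on the right, and 1 colour a gene. Kif23 forms most of both bars on the left, and the bar labelled ISC on the right is too small to see at 2 reads.

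Transport kinesins were less one-sided. The 15 genes of the list, of which 11 had reads, held 108 against 94 reads, a ratio of 0.560 (0.421 to 0.747), which became 1.58 with library totals. Of 7 with enough reads none was higher, 3 were lower and 4 were neither, beside 26.7% higher and 22.7% lower over all host genes. Kif13b, a kinesin-3 that carries membrane proteins, had 8 against 21 reads and was lower (0.186, 0.0711 to 0.436), a call that was lost with library totals and on circRNAs read in both libraries. Kif13a, its close relative of endosomal transport, had 0 against 12 reads and was at least 8.21-fold lower (5.70 by the exact interval). Kif3b, a subunit of the kinesin-2 motor of cilia, had 17 against 18 reads and a ratio of 0.460 (0.223 to 0.947). With library totals it lay higher, at 0.38 on the log2 scale. Its call of lower was also lost with halved reads, on the count column and on circRNAs read in both libraries.

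The remaining transport kinesins with enough reads differed by less than the rule asks. Kif16b, which moves early endosomes, had 27 against 17 reads (0.774, 0.407 to 1.51). Kif21b, which restrains microtubule growth in neurons and T cells, had 25 against 15 (0.812, 0.412 to 1.66). Kif1b, a carrier of mitochondria and synaptic vesicle precursors, had 15 against 5 (1.46, 0.505 to 5.14), and Kif5b, the ubiquitous heavy chain of conventional kinesin, 7 against 3 (1.14, 0.260 to 6.82). All 4 intervals include 1. With library totals Kif16b, Kif21b and Kif1b were called higher. Kif3a had 6 reads, Kif3c 2 and Kif21a 1 labelled ISC, and Kif21a 2 and Kif5c 1 labelled non-ISC.

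Among the other kinesins Kif2a, a microtubule depolymerase of spindle poles and of growing axons, was the most read, with 88 against 29 reads. Its ratio of 1.48 had an interval of 0.962 to 2.34. Kif24, a depolymerase of centrioles, had 5 reads in each library (0.487, 0.112 to 2.12). Adding both to the mitotic list brought its ratio to 1.96, below the 2-fold that the rule asks. Kif26b had 7 reads and Kif27 1, all labelled non-ISC.

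Myosins outside the brush border went in both directions. Myo1g, a class I myosin of blood cells that lies under the T cell membrane, had 14 against 0 reads. It was at least 2.27-fold higher (1.62 by the exact interval), and its relative Myo1f had 4 against 0. All reads of Myo1g came from the single circle of exons 10 to 12. Myo1e, a long-tailed class I myosin of endocytosis, had 8 against 29 reads and was lower (0.134, 0.0531 to 0.301), although on circRNAs read in both libraries it no longer passed. Its printed circle of exons 5 to 9 had 17 reads labelled non-ISC and no entry labelled ISC, while the one of exons 7 to 9 had 3 against 5. Myo5c, a class V myosin of glandular epithelia, had 0 against 13 reads and was at least 8.89-fold lower (6.25 by the exact interval). Myo18a, which acts at the Golgi, had 12 against 15 reads (0.390, 0.167 to 0.892), but its log2 ratio was 0.15 with library totals. Its call of lower was also lost when reads were halved.

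The class IX myosins passed in neither direction. Myo9a had 50 against 21 reads (1.16, 0.685 to 2.03) and Myo9b 11 against 6 (0.894, 0.303 to 2.94). Myo10, the motor of filopodia, had 7 reads in each library (0.487, 0.146 to 1.63). Of those under 10 reads, Myo5a had 9, Myo16 6 and Myo3b 1 labelled ISC, and Myo19 had 4 and Myo7a 1 labelled non-ISC.

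Nonmuscle myosin II heavy chains split by gene. Myh9, the widely expressed IIA chain that is abundant in blood cells, had 41 against 9 reads and was higher (2.22, 1.06 to 5.20). That call was lost when reads were halved and on circRNAs read in both libraries, and on the count column the log2 ratio was -1.41. Myh14, the IIC chain of epithelia, had 0 against 17 reads on 8 circles and was at least 11.6-fold lower (8.46 by the exact interval). Myh10, the IIB chain, had 2 against 0. The 3 genes together stood at 0.806 and, with library totals, at 2.27. Reads of Myh9 labelled ISC lay mostly on 2 circles that start at exon 2, one ending at exon 3 with 22 against 8 reads and one ending at exon 5 with 10 reads and none labelled non-ISC.

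Cytoplasmic dynein 1 had 61 against 28 reads over 5 genes. Its heavy chain Dync1h1, the motor subunit, had 27 against 20 reads (0.658, 0.356 to 1.24), and the light intermediate chain Dync1li1, which binds adaptors, had 20 against 7 (1.39, 0.566 to 3.90). The intermediate chain Dync1i1, which binds dynactin, had 10 against 0 reads on 4 circles and was higher. Set against 3 reads it was at least 1.62-fold higher (1.09 by the exact interval), below the 2-fold of the rule, which an observed 0 passes. Dync1i2 and Dync1li2 had 2 reads each labelled ISC, and Dync1li2 1 labelled non-ISC. Dync2h1, the heavy chain of ciliary dynein 2, had 12 against 0 reads on 6 circles and was higher. Its bound was 1.95-fold, or 1.35 by the exact interval.

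Axonemal dyneins were almost wholly Dnahc8, the files' name for Dnah8, an outer arm heavy chain known from sperm flagella. It had 150 against 53 reads, or 958 against 694 per 1000000 junction reads, values that are not scaled for gene length. The ratio was 1.38 (1.002 to 1.92) and did not reach 2. Dnahc9 had 4 reads and Dnahc17 2 labelled ISC, and Dnahc7b had 2 labelled non-ISC. Genes of ciliated cells had 1 read in all. Dnahc8 also gave the most circRNAs, 38, of which 32 had reads labelled ISC, 12 labelled non-ISC and 6 both. Of these, 35 were exonic, and they covered 78 exons of the gene's 93, while 18 had only 1 or 2 reads.

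Leading circles of a host could differ between the 2 libraries. With at least 20 reads in each library, 5 motor genes could be compared, and 2 of them, Dync1h1 and Myo9a, had the same leading circle in both. Kif23 was led by exons 14 to 17 in the library labelled ISC, with 58 of 169 reads (34.3%, 27.2 to 42.0) against 7 of 32 (21.9%, 9.28 to 39.97), and by exons 16 to 21 in the other, with 45 (26.6%) against 12 (37.5%). These intervals overlap. Kif2a differed more. Exons 2 to 4 held 36 of 88 reads labelled ISC (40.9%, 30.5 to 51.9) and had no entry labelled non-ISC, where 0 of 29 allows up to 11.9% by the exact interval. Exons 5 to 9 held 31 and 18 reads, 35.2% and 62.1%.

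Dnahc8 circles that end at exon 24 were listed with different starts. Exons 22 to 24 had 15 reads and no entry labelled non-ISC, and exons 23 to 24 had 14 reads and no entry labelled ISC. The circle of exons 27 to 31 held about the same share, with 39 of 150 (26.0%) and 13 of 53 (24.5%). Of Dync1h1 reads, exons 49 to 51 held 11 of 27 (40.7%, 22.4 to 61.2) and 18 of 20 (90.0%, 68.3 to 98.8), intervals that do not overlap. Kif14 gave 13 against 4 reads on exons 20 to 23, and 10 on exons 14 to 17 with no entry labelled ISC. A missing entry need not be 0 reads, since how circles were called and listed is not stated. The Kif15 circle of exons 24 to 26, with 14 reads labelled ISC, was listed with 0 junction reads in the other library, where its count was 13.

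**Figure D4:**
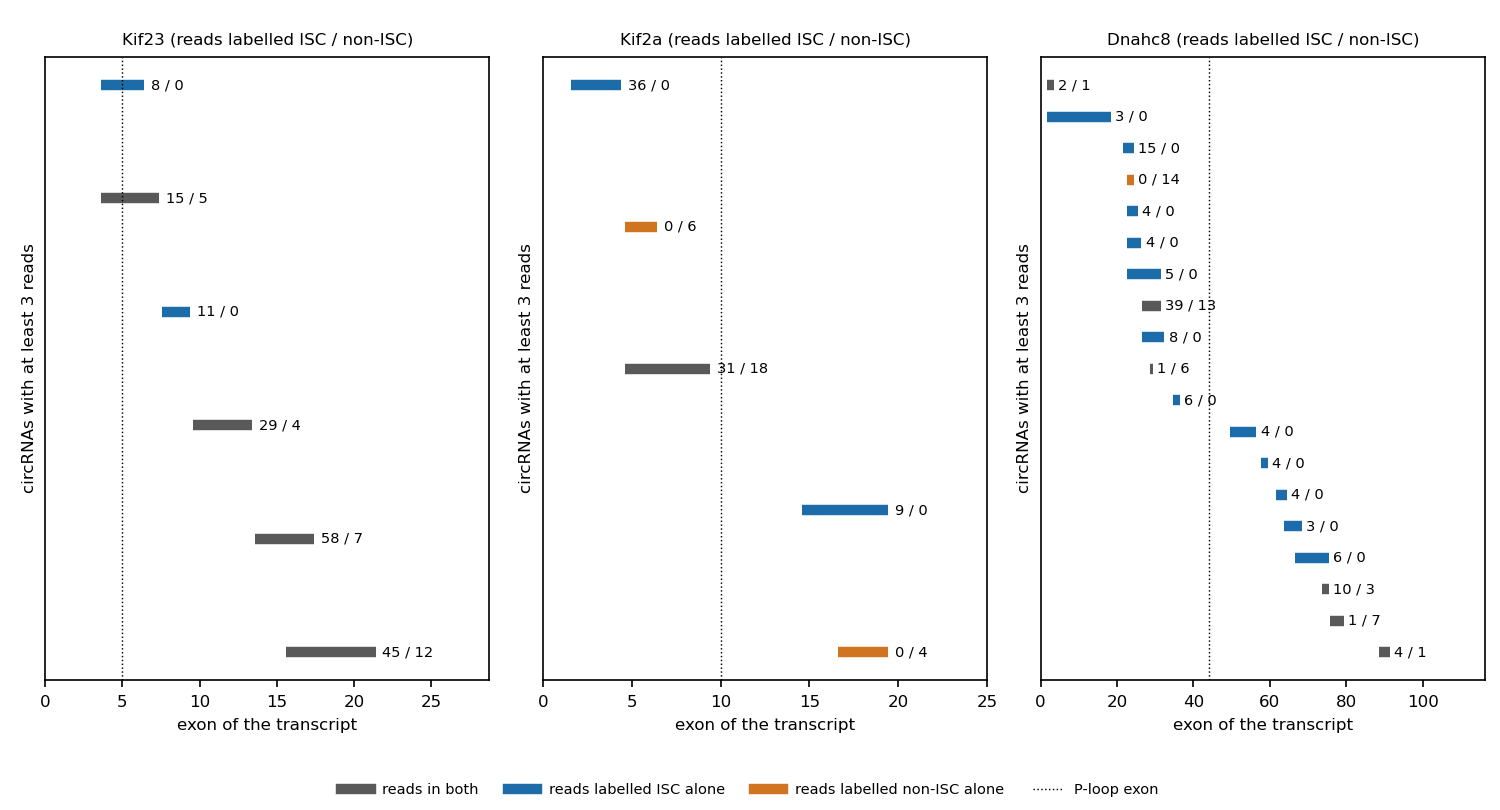
Exons spanned by the circRNAs with at least 3 reads of Kif23, Kif2a and Dnahc8 on the transcript that holds most of them, coloured by the library that read them, with the reads labelled ISC and non-ISC written beside each bar and a dotted line at the exon that encodes the P-loop. Kif23 circles are spread along the gene and some overlap, as do those of exons 14 to 17 and 16 to 21. The P-loop exon of Dnahc8 lies in none of its circles shown.

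Over single circRNAs, 38 motor circles had at least 10 reads. Of these, 9 were higher (23.7%), against 32.4% of all circRNAs with enough reads, 11 were lower (28.9%), against 23.0%, and 18 were neither. No read was found in the other library for 7 of the 9 and 8 of the 11, so these calls rest on an absent entry or on 0 listed reads. Both libraries held reads for 36 of the 282. In Kif23, 3 circles were higher: exons 14 to 17 (ratio 4.04, 1.84 to 10.5), exons 10 to 13 with 29 against 4 reads (3.53, 1.24 to 13.8), and exons 8 to 9 with 11 reads labelled ISC. Its circles of exons 4 to 7, with 15 against 5 reads, and of exons 16 to 21 passed in neither direction. All 11 Kif23 circles were exonic and together they covered 19 exons.

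Motor heads bind ATP through the P-loop, the Walker A motif. It lies near the N-terminus of myosins and in the motor domain of kinesins, and towards the middle of dynein heavy chains. Its exon, found in the translation of each GENCODE transcript, lay inside 18 of 89 kinesin circles (20.2%), 16 of 84 myosin circles (19.0%) and 2 of 47 dynein heavy chain circles (4.26%). In Kif23 it lay in the circles of exons 4 to 7, of exons 4 to 6 and of exons 3 to 9, the last with 0 against 2 reads. The Kif2a circle of exons 5 to 9 ended at the exon before it, and the circle of exons 2 to 4 lay before it. No motor circle is shown here to be translated, and holding the exon says nothing of a protein.

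Motor partners were read beside the motors, and their counts of calls stand against 26.7% higher and 22.7% lower over all host genes. Dynactin subunits and dynein adaptors had 201 against 48 reads, a ratio of 2.04, and of 7 with enough reads 5 were higher, 1 lower and 1 neither. Dctn2, the dynactin subunit dynamitin, had 46 against 0 reads, and Nin, a centrosomal adaptor, 51 against 2, whereas Trak1, an adaptor of mitochondrial transport, had 2 against 26. Kinesin partners had 120 against 57 reads (1.03), and of 5 with enough reads 2 were higher and 2 lower. Klc1, a kinesin-1 light chain, was in neither direction at 61 against 25. The name rule left Kifc1, Kifc3 and Cenpe out of the motor genes, and they are counted in this list. Of these, Kifc3 was lower at 0 against 11, and Kifc1 and Cenpe had fewer than 10 reads. Spindle partners had 421 against 178 reads (1.15), and of 8 with enough reads none was higher, 1 was lower (Prc1, 28 against 31, but at 0.31 on the log2 scale with library totals) and 7 were neither. The partner of Kif23 in centralspindlin, Racgap1, had 30 against 21 reads and was among the 7, as was Ckap5, a microtubule polymerase, at 230 against 63.

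Brush border partners had 75 against 282 reads, a ratio of 0.130. Cdhr2, the microvillar protocadherin that Myo7b is linked to, had 0 against 160, and is counted among the enterocyte markers too. Pls1, an actin bundler of the core, had 0 against 70. Both were lower, as was Rab11fip1, and Rab11a, the recycling endosome GTPase that binds Myo5b, was in neither direction at 61 against 17. Myosin II regulators had 354 against 156 reads (1.11). Of 4 with enough reads 1 was higher, 1 lower and 2 neither, beside 26.7% higher and 22.7% lower over all host genes. Rock1, a kinase that activates myosin II, was higher at 231 against 43. Ppp1r12a was in neither direction at 99 against 80 (0.603), and Cdc42bpb, a kinase related to Rock1, was lower at 0 against 21.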

How the data were processed

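Per the file headers, the authors deposited for each library a list of circRNAs with 3 value columns, namely count, RPM and junction count. The deposited junction count, whole reads across the back-splice junction, was the measure used. The deposited count column served as an alternative, and how it was made is not stated. The authors' RPM values were used to recover library totals of 52636694 (labelled ISC) and 72271995 (labelled non-ISC) reads. Trimmomatic 0.36, FastQC and mm9 are named in the submitters' processing notes. The sources used here give no aligner and no circRNA caller. Of motor circRNAs, 84.5% started on exon starts and 83.4% ended on exon ends of GENCODE M21 on GRCm38, against at most 0.573% when shifted by 1 nt, so coordinates are given as GRCm38, counted from 1.

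Python 3.11.15 with numpy 2.4.6, pandas 2.3.3, scipy 1.17.1 and matplotlib 3.10.9 summed junction reads per circRNA and gene, with a circRNA without an entry as 0. Ratios of shares have exact conditional (Clopper-Pearson) intervals at 95%, and log2 ratios add 0.5 reads. With 1 library a group there is no test between conditions. Intervals cover counting error only, and PCR copies and mates of a pair are not independent. The call rule was tested on simulated data. Every motor gene with at least 10 reads is named, and sequences are those of leading circRNAs and of circles, picked after their values were seen, that share an end with one. Exon numbers follow the chosen GENCODE transcript. Members and lists were chosen with earlier results of these data known. Alternatives changed the scaling, the measure, the read minimum, the missing entries, halved reads, host names and list members.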

Additional observations from a re-analysis of the deposited data

Results flagged for a closer look

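The library labelled non-ISC lists 83 motor circRNAs with 0 junction reads, and the library labelled ISC lists none. The count column gives those 83 a sum of 9167, which no comparison of junction reads uses, though the alternatives on the count column do. They were picked out as a signal outside the measure analysed. The highest is a Myo7b entry of exons 24 to 39 with a count of 1954, next to 103 junction reads for the whole gene. Further ones are an unannotated Myo1a interval with 912 and Dync1h1 exons 58 to 63 with 667. What the count column holds for such entries was not tested.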

How the results depend on the processing

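No paired analysis was possible because each group has 1 library and the groups share 1 replicate number. Brush border myosins were lower under every alternative run. The main setting gave 6 higher and 12 lower genes and 9 higher and 11 lower circRNAs. Library totals gave 14 and 9 genes and 21 and 9 circRNAs. The count column gave 17 and 32 genes and 62 and 114 circRNAs, and, with library totals (chosen after seeing the data), 29 and 19 genes and 91 and 102 circRNAs. Halved reads gave 1 and 8 genes and 2 and 3 circRNAs. CircRNAs read in both libraries gave 1 and 3 genes and 2 and 3 circRNAs. A minimum of 20 reads gave 3 and 8 genes and 3 and 4 circRNAs. With a minimum of 5 reads there were 6 and 13 genes and 9 and 29 circRNAs. Shares called over all host genes and circRNAs were not computed under these alternatives, so these counts show nothing particular to motor genes. Library totals raise every log2 ratio by 1.49, and the ratio summed over all host genes was then 2.84. The mitotic ratio was 1.004 on the count column and 1.96 with Kif2a and Kif24, and passed the rule in neither. The non-ISC mitotic share was 5.13% on the count column and 53.3% on circRNAs read in both. At 10 reads per library, 5 of 10 genes shared their leading circle. Changes of direction where at least 1 of the values passed the rule follow. Library totals turned the myosin II sum (2.27) and the log2 ratios of Kif16b (1.11), Kif21b (1.18), Kif3b (0.38) and Myo18a (0.15). Kif16b and Kif21b were then called higher. Without a change of direction, library totals also brought Dnahc8, Dync1li1, Kif1b, Kif2a, Kif4 and Myo9a from neither to higher. The count column turned cytoplasmic dyneins (0.223), kinesins (0.319) and the log2 ratios of Dync1li1 (-3.15), Kif1b (-2.56), Kif23 (-0.62), Kif2a (-1.01), Kif4 (-1.36), Myh9 (-1.41) and Myo9a (-1.19). In the library labelled ISC, 1 entry holds 79.1% of that column. With library totals on it, Kif14 (1.09), Kif21b (1.26), Kif24 (1.50), Kif3b (2.19) and Myo9b (1.66) turned. Without passing on either side, library totals turned Dync1h1 (0.88), Kif14 (0.64), Kif24 (0.46), Myo10 (0.46) and Myo9b (1.28), and the count column turned Dnahc8 (-0.27) and the axonemal dynein sum (0.689). Circles read in both libraries turned Dnahc8 (-0.17), Kif14 (0.55), Kif2a (-0.27) and the sums of axonemal dyneins (0.896), cytoplasmic dyneins (0.528) and myosin II (1.30). The count column with library totals turned Dync1li1 (-0.95), Kif16b (0.28) and Kif1b (-0.36). The cause of these changes was not tested. Median-ratio scaling and other host names changed the call of none of the 32 genes, and median-ratio scaling moved Kif5b from 0.06 to -0.02. The depth labelled non-ISC limits what an absent gene means, at 39.3 per 1000000.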

Other observations

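Motor circles were exonic more often than circles at large, with 238 of 282 (84.4%) against 68.9% of 26265. A circle counted as exonic only when both ends lay on exon borders of a protein-coding transcript. Circles at large include some without a host gene, so the 2 sets differ in make-up and this share was not matched. Exonic motor circles had a median of 4 exons against 3 and of 529 spliced nt against 476. Exon 2 was the first exon of 27 motor circles (11.3%) against 26.1% of all exonic circles. Within transcripts of at least 20 exons the shares that start at exon 2 were 10.8% and 14.4%. There the median was 4 exons in both sets, with 543.5 against 513 spliced nt. A spliced length divisible by 3 was found for 36.6% of motor circles and 38.4% of all. These are descriptions over circles that share genes and libraries, and none was tested.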
